A study of Mus musculus with 365 samples.

Results

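Runx1, Runx2, Runx3, Cbfb, Myb and Myc, 6 genes for transcription factors of early blood cells, were taken by Entrez identifier from the 23427 genes of a single-cell RNA-seq count table, and all 6 were found (Entrez 12394, 12393, 12399, 12400, 17863 and 17869). They were followed across 365 single EPLM cells, a class of early progenitors with lymphoid and myeloid potential from femoral bone marrow. The 152 Ly6D+ cells filled 3 Fluidigm C1 capture chips (chips 4, 5 and 6) and the 213 TN cells filled 3 others (chips 1, 2 and 3). Both populations came from C57BL/6 mice carrying the Flt3Ltg transgene, from pools of 2 animals, so Ly6D+ and TN cells share the genotype and non-transgenic cells were not analysed here. Ly6D is a surface protein that marks B-lineage priming in lymphoid progenitors. TN stands for triple negative, and the labels name neither the 3 absent markers nor the age of the animals. Because a chip held cells of 1 population, chip and population cannot be told apart, and nothing in the labels says which chips came from separate animals, so each p-value covers chip-to-chip spread only, which may be technical.

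Runx1, Runx2 and Runx3 are related DNA-binding proteins that recognise the same short site through their Runt domain. Cbfb, their common partner, does not bind DNA itself but strengthens the binding of each Runx protein and shields it from degradation. Myb is a DNA-binding activator needed for early haematopoiesis and for B and T cell precursors, and Myc pairs with Max on E-box sites to drive growth and ribosome production. Runx1 and Myb act early in blood formation and in B-lineage entry, Runx2 is known in bone and plasmacytoid dendritic cells, and Runx3 in cytotoxic T, NK and innate lymphoid cells.

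The sequences just upstream of 3 Runx gene starts are shown because they carry matches to the sites that these same factors bind. RefSeq promoter entries on GRCm38.p6 were matched by symbol for 5 of the 6 genes, and the 250 bases before each start were searched on both strands for the Runx core TGTGGT, which on the opposite strand reads ACCACA. The E-box CACGTG and the Myb core TAACNG were searched in the same way. Capitals mark the matches, which do not overlap one another, and positions count back from the annotated start, the base before it being -1. The first Runx1 entry (chr16:92826075-92826324, minus strand) held 1 E-box at -71 and 1 Myb match at -25:
Runx1: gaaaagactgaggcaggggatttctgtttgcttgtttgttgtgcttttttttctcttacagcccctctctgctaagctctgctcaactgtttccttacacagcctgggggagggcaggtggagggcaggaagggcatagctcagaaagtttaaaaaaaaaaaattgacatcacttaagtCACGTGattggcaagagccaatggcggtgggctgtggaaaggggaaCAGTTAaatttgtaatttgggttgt
The Runx2 entry (chr17:44814628-44814877, minus strand) held 1 Runx match at -80:
Runx2: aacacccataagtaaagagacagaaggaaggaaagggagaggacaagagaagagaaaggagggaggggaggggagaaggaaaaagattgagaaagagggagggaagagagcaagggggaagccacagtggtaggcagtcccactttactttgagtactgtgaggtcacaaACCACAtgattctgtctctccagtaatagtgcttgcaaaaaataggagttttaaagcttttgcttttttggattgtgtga
The first Runx3 entry (chr4:135120395-135120644, plus strand) held a pair of Runx matches at -134 and -126:
Runx3: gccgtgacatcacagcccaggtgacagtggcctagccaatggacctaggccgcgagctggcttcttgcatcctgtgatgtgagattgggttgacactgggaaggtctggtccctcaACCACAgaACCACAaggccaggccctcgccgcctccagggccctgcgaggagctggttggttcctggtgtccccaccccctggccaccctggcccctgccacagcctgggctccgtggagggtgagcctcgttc
Of 32851 RefSeq promoters searched the same way, 14% held a Runx core, 6.02% an E-box and 19.8% a Myb core, so single matches are common. The second entries of Runx1 and Runx3 and the entries of Cbfb and Myb held none of these letters in the same window. For the first Runx3 entry, the bases after its start were not found in an annotated Runx3 transcript. For the second Runx3 entry and for the Runx1 and Runx2 entries shown they were found in a transcript of the gene. A match is a description of the letters and not a measured site. The counts join all transcripts of a gene, so the alternative starts of Runx1 and Runx3 were not measured apart.

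The chips held 35734620 to 61415823 reads, with median reads per cell of 894864 to 1000070 on Ly6D+ chips and 750934 to 823684 on TN chips. A gene was counted as detected in a cell at 5 or more reads after each cell had been thinned to 200000 reads, which equals 25 CPM (counts scaled to 1000000 reads per cell). Cells showed means of 2833, 2438 and 2789 detected genes on Ly6D+ chips and 2611, 2511 and 2443 on TN chips. Of the 6 progenitor identity genes (Ptprc, Kit, Flt3, Cd34, Spi1 and Ikzf1) none was at 0. Their summed level was 2176 to 2329 CPM on Ly6D+ chips and 1733 to 2302 CPM on TN chips. That sum joins genes of opposite order. Flt3 (means of 518 and 311 CPM) and Ikzf1 (693 and 443 CPM) were higher on all Ly6D+ chips. Cd34 (191 and 417 CPM) and Spi1 (7.85 and 24.5 CPM) were lower on all of them, while Ptprc and Kit overlapped. The B-lineage list of 12 genes summed to 2492 to 3285 CPM on Ly6D+ chips and 167 to 647 CPM on TN chips. The myeloid list of 9 genes ran the other way, with 68.9 to 299.9 CPM on Ly6D+ chips and 1628 to 3266 CPM on TN chips. Conventional dendritic genes summed to 1295 to 1767 CPM on Ly6D+ chips and 3688 to 6292 CPM on TN chips, and plasmacytoid dendritic genes to 1541 to 2231 CPM and 1709 to 2146 CPM. In the conventional dendritic list Flt3 ran against the sum, and Cst3 had the highest mean in TN cells, at 1981 CPM. The plasmacytoid sum also joins genes of opposite order. Siglech (means of 144 and 45.4 CPM) and Cox6a2 (253 and 87.9 CPM) were higher on all Ly6D+ chips. Irf8 (783 and 1216 CPM) was lower on all of them, the other tested genes of the list overlapped, and Klk1 was at 0. T, NK and innate lymphoid genes summed to 146 to 480 CPM on Ly6D+ chips and 1015 to 1730 CPM on TN chips, with Cd3e and Ncr1 at 0. Id2 was the largest part of that sum on each chip, with means of 215 CPM on Ly6D+ and 975 CPM on TN chips. Erythroid and megakaryocyte, mature neutrophil and macrophage lists stayed at or under 12.7 CPM on every chip, with Gata1, Klf1, Hba-a1, Hba-a2, Pf4, Ltf, Camp, Retnlg, C1qa and Cd5l at 0. Cells with 5 or more of 20 G2/M genes made up 30%, 35% and 32.7% of Ly6D+ chips and 50.7%, 52.2% and 59.4% of TN chips. Xist was found in 41 of the 69 cells of TN chip 2 and in no cell of the other chips. The populations thus differ in lineage genes and in cycling share as well as in any single factor, and the part of either in the values of the 6 genes was not tested.

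All 6 genes were expressed in both populations, each having reads in 229 to 290 of the 365 cells. Myb and Myc were the genes whose chip levels did not overlap, with 1.88 and 2.11 times more in Ly6D+ than in TN cells, where 15.4% of tested genes had no overlap and 7.64% none with Ly6D+ higher. Runx1, Runx2, Runx3 and Cbfb overlapped between populations in chip level. None of the 6 passed the edgeR quasi-likelihood test on reads summed per chip at an adjusted p under 0.05, a call that 0.203% of the 11797 tested genes received (0.0932% higher and 0.11% lower in Ly6D+ cells). Myb and Myc were the 2 members at an unadjusted p under 0.05 in that test, where 8.38% of genes were (4.27% higher), and the same 2 were called by DESeq2 (3.6% of genes, 1.77% higher) and by limma-trend on chip means of log values (2.76% of genes, 1.87% higher). All 6 genes had passed the count filter.

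Per transcript length, Myc and Myb led the set in Ly6D+ cells. In RPKM, reads scaled by library size and gene length, Ly6D+ chips averaged 149 ± 22.6 for Myc, 126 ± 17 for Myb, 66.7 ± 9.6 for Runx2, 38.8 ± 3.0 for Runx3, 34.4 ± 13.2 for Cbfb and 27.2 ± 4.5 for Runx1 (SD, n = 3 chips). TN chips averaged 78.1 ± 8.2 for Runx2, 70.6 ± 13.3 for Myc, 67.2 ± 16 for Myb, 51.6 ± 15.6 for Cbfb, 39.3 ± 7.2 for Runx3 and 25.8 ± 6.0 for Runx1. In Ly6D+ cells Myc and Myb overlapped each other and both lay above Runx2 on every chip, and Runx2 lay above Runx3. Runx3, Cbfb and Runx1 were not separated from their neighbours in that order. In TN cells the only neighbours without overlap were Runx3 and Runx1, and each of the other neighbouring genes in the order overlapped.

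**Figure D1:**
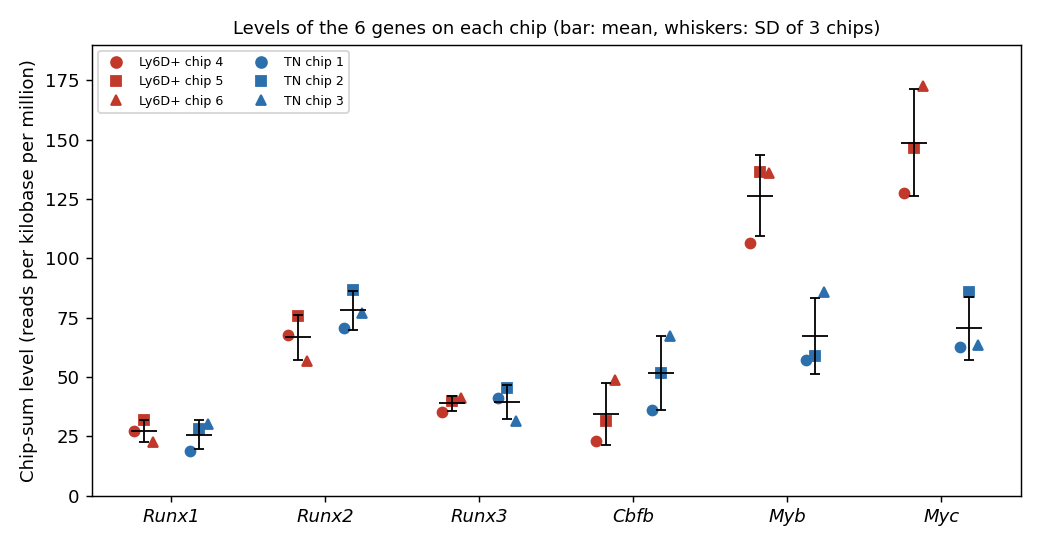
Chip-sum level in RPKM (y axis) of the 6 genes (x axis) on each Ly6D+ chip (red, left) and TN chip (blue, right), where marker shape is the chip, the bar the mean and the whiskers the SD of 3 chips. Myb and Myc on Ly6D+ chips sit above all TN chips, at 107 to 136 RPKM for Myb and 127 to 172 RPKM for Myc, while the other 4 genes overlap.

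Runx1, the Runx protein required for the first blood stem cells, had 200.5, 234.4 and 167.4 CPM on Ly6D+ chips 4, 5 and 6, against 139.6, 207.0 and 222.9 CPM on TN chips 1, 2 and 3. The ranges overlapped, with TN chip 1 lowest and Ly6D+ chip 5 highest, and the log2 fold change of Ly6D+ over TN was 0.08 ± 0.27 (SE; edgeR adjusted p = 0.977). Its share of detecting cells did separate: 75%, 63.3% and 63.5% of cells on Ly6D+ chips, against 48.0%, 52.2% and 49.3% on TN chips. Every Ly6D+ chip lay above every TN chip, a pattern shown by 10.4% of tested genes in that direction and by 16.5% in either. The difference of the means was 17.4 percentage points (67.3 ± 6.7% and 49.8 ± 2.1%, SD, n = 3 chips each; exact two-sided permutation p = 0.1, the smallest that 3 chips against 3 can give; 0.607 adjusted over all tested genes). The difference ranked at the 98.2 percentile of tested genes and was 8.96 points in the cells with 2000 to 3500 detected genes, still without overlap of chips. Counting error within a chip was wide: the 95% Wilson interval was 50.7 to 74.4% on Ly6D+ chip 5 and 40.6 to 63.5% on TN chip 2, and reads amplified without molecular identifiers make such intervals cover counting error only. Among detecting cells the median Runx1 level was 166, 234 and 184 CPM on Ly6D+ chips and 217, 312 and 333 CPM on TN chips, overlapping between chip 5 and TN chip 1. So Runx1 was found in more Ly6D+ cells while the median amount per detecting cell averaged 0.676 times that in TN cells (exact permutation p = 0.2). The chip sums were close.

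Runx2 was the most abundant Runx gene in both populations. Its level was 579.7, 646.9 and 483.8 CPM on Ly6D+ chips and 603.4, 742.5 and 657.1 CPM on TN chips. Ly6D+ chip 6 was lowest and TN chip 2 highest, with overlap between and a log2 fold change of -0.23 ± 0.19 (adjusted p = 0.822 in edgeR). It was -0.14 without Ly6D+ chip 6 or without TN chip 2. Runx2 was detected in 70.0%, 56.7% and 53.8% of cells on Ly6D+ chips, against 69.3%, 71.0% and 63.8% on TN chips. Ly6D+ chip 4 was as high as the TN chips and the other 2 were lower than all of them (exact permutation p = 0.3). Median levels in detecting cells were nearly equal, with 591 ± 102 CPM among Ly6D+ and 584 ± 32 CPM among TN cells. On the RPKM scale Runx2 gave 50.1 ± 2.7% of the summed Runx signal in Ly6D+ cells and 54.6 ± 0.8% in TN cells. Runx2 overlaps Supt3 in the annotation, and without strand the reads of the overlap cannot be assigned; Supt3 held 8900 reads in the table against 192840 for Runx2. RefSeq also places Gm30281 over part of Runx1, Runx2os3 over part of Runx2, and Gm22063 and AI225912 over part of Cbfb, and none of these 4 was counted.

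Runx3 differed least. It had 137.7, 155.9 and 159.6 CPM on Ly6D+ chips and 159.8, 176.5 and 122.1 CPM on TN chips, and the TN range enclosed the Ly6D+ range. Its log2 fold change was -0.02 ± 0.25 (adjusted p = 0.996 in edgeR). Detection was 55.0%, 51.7% and 69.2% on Ly6D+ chips and 61.3%, 66.7% and 49.3% on TN chips, overlapping throughout (exact permutation p = 1). T, NK and innate lymphoid genes, the lineages in which Runx3 is best known, were at lower sums on Ly6D+ chips as given above, while Runx3 was not. Id2 was the largest part of those sums and Tcf7 overlapped between populations. A relation of Runx3 to these genes was not tested.

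Cbfb, the partner that all 3 Runx proteins share, had 66.6, 92.0 and 142.2 CPM on Ly6D+ chips and 104.6, 150.4 and 195.6 CPM on TN chips. The chips of each population spread about as far as the populations did, Ly6D+ chip 6 lying inside the TN range, for a log2 fold change of -0.58 ± 0.37 (adjusted p = 0.744 in edgeR). It was -0.35 without TN chip 3, -0.36 without Ly6D+ chip 4 and -0.93 without Ly6D+ chip 6. Detection was 42.5%, 31.7% and 51.9% on Ly6D+ chips and 50.7%, 46.4% and 42.0% on TN chips (exact permutation p = 0.7). Cbfb was the least often detected of the 6 in both populations apart from Myc in TN cells, which averaged 42.9 ± 5.3%. The summed Runx RPKM was 4.28 ± 1.65 times the Cbfb RPKM on Ly6D+ chips and 2.93 ± 0.80 times on TN chips, which overlaps within the SD.

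Myb had 402.7, 515.0 and 513.2 CPM on Ly6D+ chips, against 215.9, 222.3 and 323.4 CPM on TN chips. The lowest Ly6D+ chip exceeded the highest TN chip. Means were 477 ± 64 CPM on Ly6D+ and 254 ± 60 CPM on TN chips (SD, n = 3 each). The log2 fold change of 0.91 ± 0.24 (SE) did not pass adjustment in edgeR (p = 0.00454, adjusted p = 0.246) and did in DESeq2 (adjusted p = 0.0231) and limma-trend (adjusted p = 0.00109). Myb was also found in more cells, in 80.0%, 85.0% and 90.4% on Ly6D+ chips and in 62.7%, 56.5% and 56.5% on TN chips. The chips did not overlap, and the difference of 26.6 percentage points ranked at the 99.5 percentile of tested genes (exact permutation p = 0.1; 0.607 adjusted). It was 17.1 points in cells with 2000 to 3500 detected genes. The nearest chips had Wilson intervals of 65.2 to 89.5% on Ly6D+ chip 4 and 51.4 to 72.7% on TN chip 1, so single chips overlap in counting error. The median level in detecting cells was 438, 298 and 479 CPM on Ly6D+ chips and 213, 209 and 265 CPM on TN chips, again without overlap (ratio 1.77; exact permutation p = 0.1). Myb was thus higher both in the share of cells and in the median amount per detecting cell.

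Myc had 305.7, 351.0 and 413.8 CPM on Ly6D+ chips, against 150.2, 206.1 and 151.8 CPM on TN chips. Again all Ly6D+ chips lay above all TN chips. Means were 357 ± 54 CPM on Ly6D+ and 169 ± 32 CPM on TN chips (SD, n = 3 each). The log2 fold change was 1.08 ± 0.24 (SE; edgeR p = 0.00177, adjusted p = 0.186; DESeq2 adjusted p = 0.00367; limma-trend adjusted p = 0.0077). Detection was 70.0%, 56.7% and 67.3% on Ly6D+ chips and 37.3%, 43.5% and 47.8% on TN chips, without overlap, and the difference of 21.8 percentage points ranked at the 99.1 percentile (exact permutation p = 0.1; 0.607 adjusted). Unlike Myb, the median level in detecting cells did not separate: 279, 427 and 328 CPM on Ly6D+ chips and 367, 489 and 199 CPM on TN chips (ratio 0.98, exact permutation p = 1). The higher chip sum of Myc thus went with more detecting cells, while the median per detecting cell showed no measurable difference. With 3 chips a group the p of 1 does not show equality, and a median leaves out the upper tail. Over all detecting cells the upper quartile was 685 CPM in Ly6D+ and 583 CPM in TN cells. The highest cell had 5385 CPM in Ly6D+ and 1995 CPM in TN cells.

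**Figure D2:**
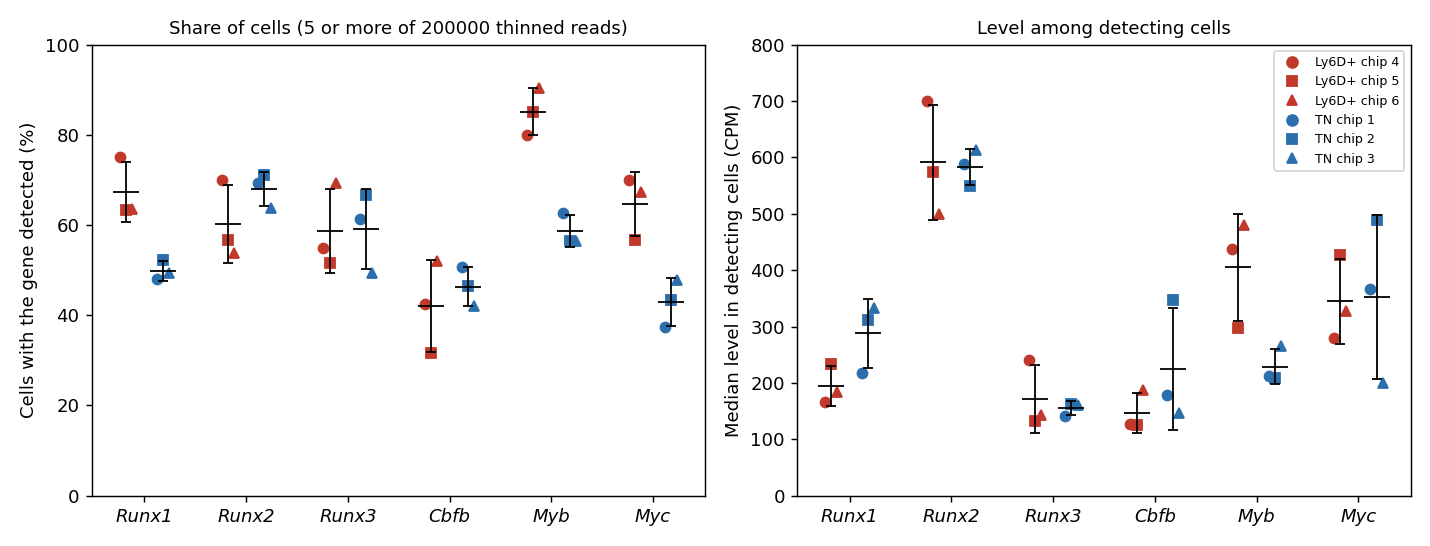
Share of cells in percent with each gene detected (left) and median CPM in the detecting cells (right) on each Ly6D+ chip (red) and TN chip (blue), with bars for the mean and whiskers for the SD of 3 chips. Runx1, Myb and Myc are detected in a larger share of cells on every Ly6D+ chip than on any TN chip, and Myb alone of the 6 is also separated in the right panel.

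Within each population single cells spread widely. They reached 1808 CPM for Runx1, 8275 CPM for Runx2 and 4088 CPM for Myb among Ly6D+ cells, while other cells of the same chips had no read. The plot of single cells shows the medians over all cells, zeros included: the median of Myb was the highest of the 6 in Ly6D+ cells, at 303 CPM against 74.7 CPM in TN cells, and that of Runx2 the highest in TN cells, with 120 CPM among Ly6D+ and 253 CPM among TN cells. The median of Myc was 155 CPM in Ly6D+ and 6.63 CPM in TN cells, and that of Runx1 117 CPM and 23.6 CPM.

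**Figure D3:**
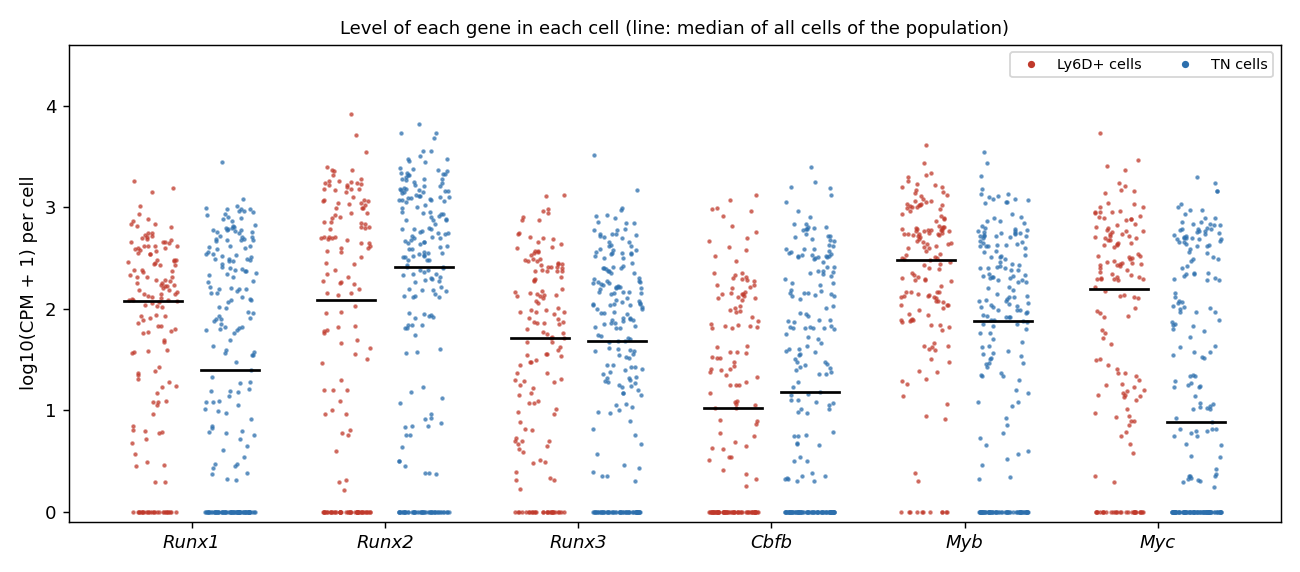
Level of each gene as log10(CPM + 1) (y axis) in each of 152 Ly6D+ cells (red, left) and 213 TN cells (blue, right), with a line at the median over all cells of the population. Each gene has cells at 0 in both populations, and the lines for Runx1, Myb and Myc lie higher in Ly6D+ cells.

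On average 3.78 ± 0.29 of the 6 genes were detected per Ly6D+ cell and 3.25 ± 0.14 per TN cell (SD over 3 chips). For the Runx genes alone the numbers were 1.86 ± 0.14 and 1.77 ± 0.14. All 3 Runx genes occurred together in 24.8 ± 4.6% of Ly6D+ and 26.4 ± 4.9% of TN cells, and none in 6.47 ± 7.39% and 11.4 ± 5.5%. The populations thus held like shares of cells with the full trio. Among the combinations in between, Runx1 with Runx3 and without Runx2 was found in 12.5%, 18.3% and 17.3% of cells on Ly6D+ chips. On TN chips it was found in 9.33%, 8.70% and 7.25%. These ranges did not overlap, while those of every other combination did. Runx1 by itself was detected in more Ly6D+ cells, and the share that the separate genes alone would give was not computed for these combinations. Runx2 alone was found in 10.0%, 11.7% and 3.85% of cells on Ly6D+ chips and in 16%, 11.6% and 15.9% on TN chips, which overlap at chip 5 and TN chip 2. Myb and Myc occurred together in 58.8 ± 3.4% of Ly6D+ and 30.1 ± 2.0% of TN cells, and neither was detected in 9.06 ± 4.81% and 28.7 ± 1.6%. Multiplying the separate shares gives 55.0% for the pair in Ly6D+ cells and 25% in TN cells, so most of the joint detection is what the 2 shares alone would give.

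Across cells of 1 chip the 6 genes were weakly related, given here as Spearman coefficients over the 40 to 75 cells of a chip, which share library and depth. Of the 15 pairs, Runx2 and Cbfb had the highest lowest-chip value, at 0.15 to 0.25 over the 6 chips. Myb and Cbfb had -0.25, -0.45 and -0.29 on Ly6D+ chips and 0.38, -0.07 and 0.14 on TN chips. Their sign was thus negative on every Ly6D+ chip and mixed on TN chips. Runx1 with Runx2 had coefficients on both sides of 0 in each population.

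Runx2 differed with the lineage genes of a cell, in opposite orders for a plasmacytoid dendritic and a B-lineage gene. In Ly6D+ cells with Siglech detected (a lectin of plasmacytoid dendritic cells; 7, 12 and 7 cells on chips 4, 5 and 6), Runx2 was detected in 92.5 ± 7.2% of cells, against 53.5 ± 8.8% of the 126 cells without it, with mean levels of 1170 ± 173 CPM and 416 ± 41 CPM. The order held on 3 of 3 chips, and detected genes per cell were similar at 2838 and 2658. In TN cells with Siglech detected (8, 6 and 7 cells on chips 1, 2 and 3, a split added after the Ly6D+ values were seen) Runx2 was detected in 95.2 ± 8.2%. It was detected in 65.1 ± 3.5% of the other 192 TN cells. The levels were 1372 ± 517 CPM and 596 ± 42 CPM, and both orders again held on 3 of 3 chips. Detected genes per cell were 2796 with and 2491 without Siglech, and their part was not tested. Ly6D+ cells with Ebf1 detected (the B-lineage commitment factor; 65 cells) showed the opposite order. In them Runx2 was detected in 46.9 ± 10.3% of cells at 323 ± 93 CPM, against 70.7 ± 9.2% at 741 ± 80 CPM in the 87 cells without Ebf1, lower on 3 of 3 chips. Detected genes per cell were 2593 with and 2775 without Ebf1. Only 5 cells had both Ebf1 and Siglech. TN cells with Dntt detected (the template-free polymerase of lymphoid precursors; 65 cells) had 332 ± 97 CPM of Runx2, against 832 ± 145 CPM in the 148 others, while detection was nearer at 64.2 ± 3.5% and 69.7 ± 4.4%.

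Runx1 was detected in 64.3 ± 7.9% of the 107 TN cells with Mpo or Prtn3 (granule enzymes of myeloid precursors) and in 35.9 ± 0.8% of the 106 TN cells with neither. It was found in 31.1 ± 6.1% of the 57 TN cells with H2-Aa (an MHC class II chain of antigen-presenting cells), against 56.6 ± 5.4% of the 156 without. Both orders held on 3 of 3 chips, also for the level, at 250 ± 52 CPM with and 132 ± 61 CPM without Mpo or Prtn3 and at 97.0 ± 38.2 CPM with and 224 ± 61 CPM without H2-Aa. Runx3 had the same order in detection, at 67.4 ± 11.9% and 51.1 ± 9.6% with and without Mpo or Prtn3, and at 36.8 ± 14.8% and 67.0 ± 8.9% with and without H2-Aa. Its level shared the order for H2-Aa (89.6 ± 38.3 CPM with and 178 ± 41 CPM without, 3 of 3 chips) but not for Mpo or Prtn3 (146 ± 31 CPM with and 164 ± 49 CPM without, higher with on 1 of 3 chips). Genes detected per cell moved the same way, at 2853 with and 2192 without Mpo or Prtn3 and at 2076 with and 2688 without H2-Aa, and their part in these shares was not tested. In Ly6D+ cells Runx1 was detected in 71.0 ± 3.8% of cells with and 64.9 ± 9.9% without Ebf1, higher on 2 of 3 chips. Its level there was 232, 306 and 172 CPM with Ebf1 and 169, 177 and 167 CPM without, higher on 3 of 3 chips and on chip 6 by little.

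Cbfb was detected more often in cells with many mitotic genes and less often in Ly6D+ cells with Ebf1, while its level did not keep those orders. It was found in 57.3 ± 13.9% of Ly6D+ cells with 5 or more G2/M genes and in 34.7 ± 8.6% of those with fewer, and in TN cells in 53.1 ± 11% and 38.8 ± 5.8%. The cells with more G2/M genes were higher on all 6 chips, and they also had more detected genes, at 3056 and 2504 in Ly6D+ and at 2887 and 2087 in TN cells. Runx2 detection had the same order on all 6 chips, at 71.2 ± 12.3% and 54.8 ± 8.3% in Ly6D+ cells and 80.9 ± 5.2% and 52.6 ± 10.4% in TN cells. The levels did not keep this order on all chips: Cbfb had 108 ± 44 and 96.6 ± 43.7 CPM in Ly6D+ cells and 150 ± 28 and 160 ± 116 CPM in TN cells, and Runx2 had 550 ± 239 and 574 ± 55 CPM in Ly6D+ cells and 749.8 ± 85.4 and 583 ± 193 CPM in TN cells, each higher on 2 of 3 chips with 5 or more G2/M genes. In Ly6D+ cells with Ebf1, Cbfb was detected in 32.4 ± 8.3%, against 49.6 ± 13.8% without it, beside 2593 and 2775 detected genes per cell. The level was 90.9 ± 20.8 CPM with and 106 ± 59 CPM without Ebf1, higher with on 1 of 3 chips.

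Myb was more frequent in TN cells with a lymphoid gene. It was detected in 80.7 ± 8.0% of TN cells with Dntt and in 48.1 ± 8.4% of those without, at 339 ± 22 CPM and 214 ± 71 CPM, beside 2726 and 2423 detected genes per cell. The share in Dntt-detecting TN cells was near the 85.1 ± 5.2% of all Ly6D+ cells. TN cells with Mpo or Prtn3 also had more Myb detection (70.3 ± 2.6% with, 46.8 ± 8.8% without), and TN cells with H2-Aa less (39.4 ± 13.5% with, 66.2 ± 6.1% without). These 3 orders of detection held on 3 of 3 chips. The level held its order on 3 of 3 chips for Dntt only, being 268 ± 70 CPM with and 235 ± 20 CPM without Mpo or Prtn3. With H2-Aa it was 141, 125 and 534 CPM, against 260, 270 and 244 CPM without, so chip 3 ran the other way; 27 TN cells had Dntt together with Mpo or Prtn3. In Ly6D+ cells Myb was detected in 90.6 ± 4.8% of cells with Ebf1 and 80.5 ± 7.8% without, while the level was 509 ± 137 CPM and 431 ± 108 CPM, higher with on 2 of 3 chips. With Siglech, Myb averaged 287 ± 132 CPM, against 520 ± 98 CPM without, lower on 3 of 3 Ly6D+ chips. Myc in TN cells was detected in 49.3 ± 6.3% of cells with Mpo or Prtn3 and 35.8 ± 5.7% of those with neither, higher on 3 of 3 chips, as was the level (196 ± 20 CPM and 141 ± 60 CPM). In Ly6D+ cells the Myc share was close with and without Ebf1, at 62.7 ± 4.5% and 67.1 ± 14.2%, and the level was 429 ± 150 CPM and 296 ± 35 CPM, higher with on 2 of 3 chips.

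**Figure D4:**
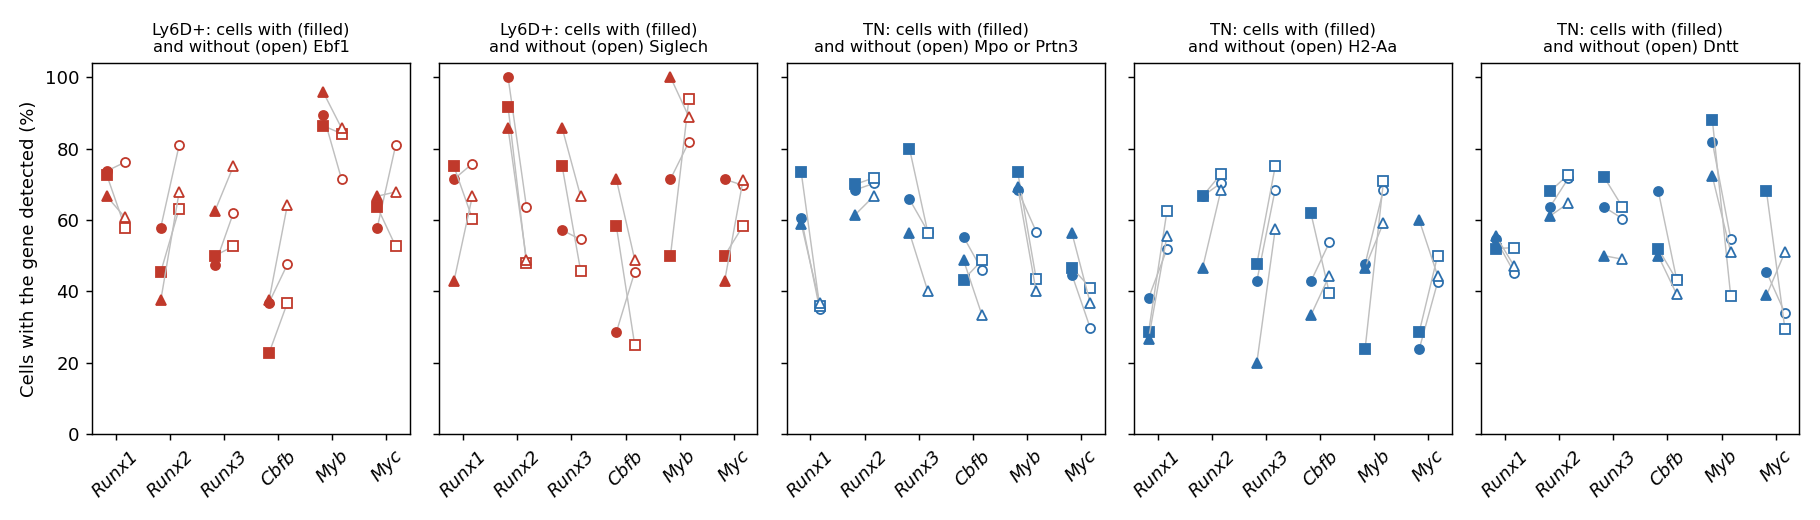
Share of cells in percent with each of the 6 genes detected, in cells with (filled) and without (open) a lineage gene, for Ebf1 and Siglech in Ly6D+ cells (red) and for Mpo or Prtn3, H2-Aa and Dntt in TN cells (blue); lines join the values of 1 chip, whose shape is circle, square and triangle for chips 4, 5 and 6 or 1, 2 and 3. Runx2 is higher with Siglech and lower with Ebf1 on each Ly6D+ chip, and Myb is higher with Dntt on each TN chip.

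The genes most like each member were ranked by the mean over 6 chips of the within-chip Spearman coefficient, among 4599 genes found in 20% or more of cells, and the named genes had 1 sign on all chips. Medians and percentiles are over all 4599. Runx2 was closest to Irf8 (a factor of dendritic and B cell development that the plasmacytoid dendritic list also holds; mean 0.44, from 0.35 to 0.57 by chip), then Lgals1 (0.38), Ctsh (0.36), Rogdi (0.36) and Jaml (0.35), where the median gene had 0.05 and the 99th percentile was 0.27. Myc was closest to Rsl1d1 (a nucleolar ribosome-production protein; 0.38), Phgdh (the first enzyme of serine synthesis; 0.33), Fkbp1a (0.31), Cd69 (0.31) and Serpinb1a (0.30). Cbfb was closest to Pclaf (a replication-clamp partner; 0.32), Tubb5 (0.30), Bub1 (0.30), Gm20756 (0.30) and Cdk1 (0.29). Bub1 and Cdk1 act in mitosis. Myb was closest to Foxp1 (a B cell development factor; 0.30), Rpl36 (0.29), Gimap6 (0.28), Glrx3 (0.27) and Adgrg3 (0.27). Values for Runx1 (Eif1ax, Serpinb1a, Hmox2 and Zeb2 among its closest, 0.25 to 0.29) overlapped those of Myb. Runx3 (Znrf1, Mbd6, Coro7, Alkbh1 and Wac, 0.22 to 0.25) had the lowest top value of the 6. Values of this size, those of Myb included, are weak in counts as sparse as these.

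The number of detected genes per cell related to Myb in TN cells and not in Ly6D+ cells: the coefficients were 0.04, -0.12 and -0.25 on Ly6D+ chips and 0.47, 0.42 and 0.41 on TN chips. The TN chips were all above the Ly6D+ chips. The level of Myc was positively related to how many of 36 Myc targets a cell showed, with coefficients of 0.22, 0.39 and 0.21 on Ly6D+ chips and 0.33, 0.53 and 0.27 on TN chips. Myc had coefficients of similar size with all detected genes, at 0.24, 0.39 and 0.07 and at 0.31, 0.43 and 0.22. With the number of G2/M genes Myc had -0.19, 0.16 and -0.01 on Ly6D+ chips and 0.04, 0.04 and -0.08 on TN chips, with no common sign.

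**Figure D5:**
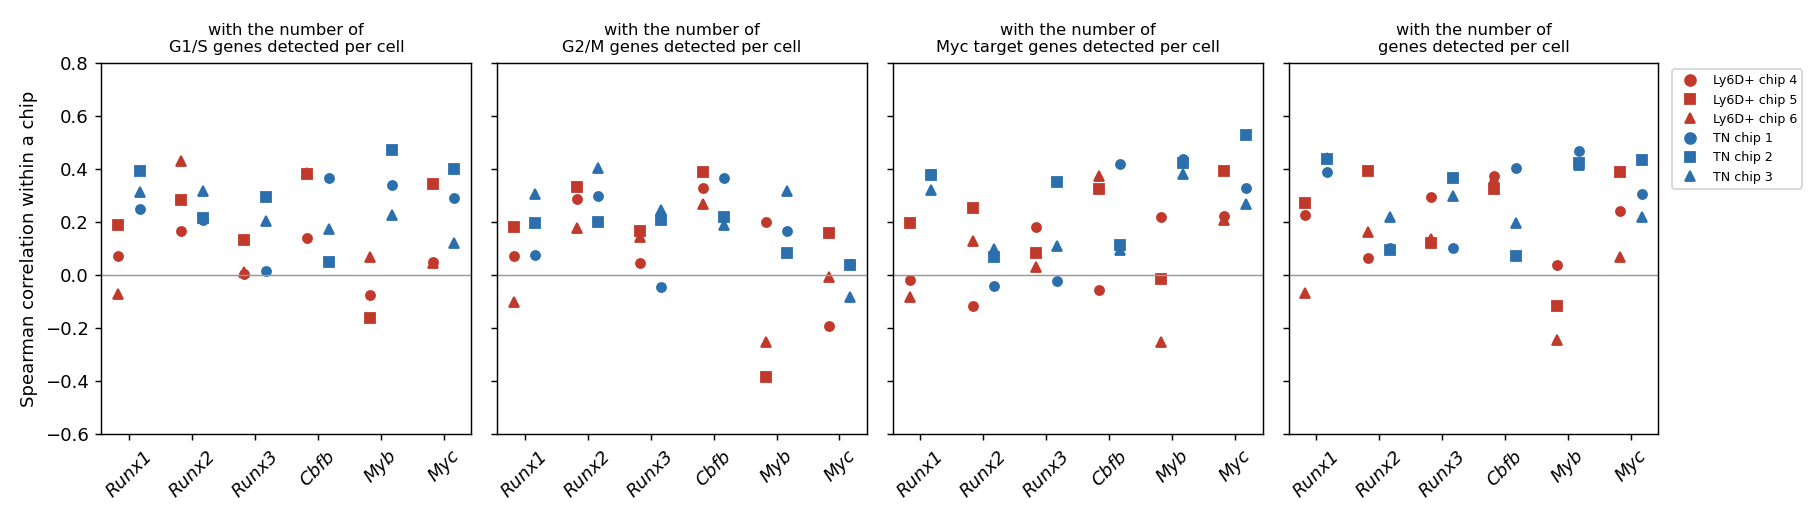
Spearman coefficient within a chip (y axis) between the level of each gene and the number of detected G1/S genes, G2/M genes, Myc targets or all genes per cell, for Ly6D+ chips (red, left) and TN chips (blue, right), with 1 marker shape per chip. Myb in the right panel is at 0.41 to 0.47 on TN chips and at or under 0.04 on Ly6D+ chips, and Cbfb with G2/M genes is above 0 on all 6 chips.

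The partners and targets of the factors were followed as lists, described by counts beside the 0.203% of genes that edgeR called and the median log2 fold change of 0.01 over all tested genes. Of 22 tested Runx cofactors and co-binding factors (23 listed) edgeR called 0, with 2 higher and 1 lower at an unadjusted p under 0.05, and DESeq2 called 1 in each direction and limma-trend 1 higher. Their median was 0.09. Ets1, which binds DNA together with Runx1, averaged 445 ± 20 CPM in Ly6D+ and 142 ± 98 CPM in TN cells without overlap (log2 fold change 1.65 ± 0.55, edgeR adjusted p = 0.405). Cbfa2t3, a corepressor of the ETO family, averaged 319 ± 25 CPM in Ly6D+ cells, against 425 ± 57 CPM in TN cells, also without overlap (-0.41 ± 0.20, edgeR adjusted p = 0.636). Of 12 tested Runx targets (14 listed) 0 rose and 2 fell in edgeR, with a median of -0.43. At an unadjusted p under 0.05 there were 2 higher and 3 lower, DESeq2 called 1 higher and 3 lower, and limma-trend 3 higher and 4 lower. The 2 were the granule genes Mpo, with 41.5 ± 15.4 CPM in Ly6D+ and 1824 ± 713 CPM in TN cells, and Elane, with no read in Ly6D+ cells and 107 ± 57 CPM in TN cells (edgeR adjusted p = 0.00478 and 0.0139). Blk, a B cell kinase, had 169 ± 30 CPM in Ly6D+ and 2.59 ± 2.51 CPM in TN cells and just missed the threshold (log2 fold change 6.03 ± 0.87, edgeR adjusted p = 0.0502). Ebf1 averaged 377 ± 73 CPM and 50.9 ± 70.5 CPM, while Cd79a, part of B cell receptor signalling, averaged 418 ± 78 CPM and 14.5 ± 25.2 CPM (edgeR adjusted p = 0.447 and 0.61). Mpo, Elane, Csf1r, Cebpa, Spi1, Ebf1 and Cd79a also stand in the lineage and progenitor lists above. The Runx target counts are thus not separate from the lineage differences.

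For the Myb lists, edgeR called 0 of 10 cofactors (0 at an unadjusted p under 0.05, and 0 by DESeq2 and limma-trend). Of 15 tested Myb targets (16 listed) 1 rose and 2 fell, the 2 being Mpo and Elane, which the Runx list also holds. At an unadjusted p under 0.05 there were 3 higher and 6 lower, DESeq2 called 2 higher and 5 lower, and limma-trend 2 higher and 3 lower. Rag2, the recombinase subunit of lymphoid precursors, rose to 210 ± 55 CPM in Ly6D+ cells, against 35.0 ± 7.8 CPM in TN cells (log2 fold change 2.59 ± 0.34, edgeR adjusted p = 0.0396). Among targets that did not pass, Il7r (the IL-7 receptor chain; 560 ± 144 CPM and 226 ± 105 CPM) and Cdk6 (a G1 kinase; 64.6 ± 23.7 CPM and 31.6 ± 1.4 CPM) were higher in Ly6D+ cells on all chips. Bcl2 (a survival factor; 220 ± 51 CPM and 424 ± 18 CPM), Cd34 (a progenitor surface protein; 191 ± 70 CPM and 417 ± 20 CPM) and Prtn3 (2.06 ± 2.77 CPM and 198 ± 88 CPM) were lower on all chips (edgeR adjusted p = 0.158 to 0.592 for these 5). The list's median log2 fold change was -0.58. Mpo, Elane, Prtn3, Rag2, Kit, Cd34 and Gata3 also stand in the lineage and progenitor lists, so these counts too are not separate from the lineage differences.

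For Myc, none of 19 tested members of the Max and Mlx network (20 listed) was called by edgeR (0 at an unadjusted p under 0.05, and 0 by DESeq2 and limma-trend); Mlxip, a Mlx partner, averaged 210 ± 107 CPM in Ly6D+ and 91.7 ± 50.6 CPM in TN cells. All 36 listed Myc targets were tested and edgeR called 0, with 1 higher and 1 lower at an unadjusted p under 0.05, while DESeq2 called 0 and limma-trend 1 higher. Of the 36, 12 had a positive log2 fold change, where 6005 of all 11797 tested genes did, and the median was -0.11. Whether these genes follow the level of Myc was not tested. Tfrc, the transferrin receptor, had 917 ± 123 CPM in Ly6D+ and 617 ± 97 CPM in TN cells (log2 fold change 0.57 ± 0.19, edgeR adjusted p = 0.411). Polr1b, a subunit of RNA polymerase I, had 52.7 ± 14.9 CPM and 112 ± 36 CPM (-1.09 ± 0.39, edgeR adjusted p = 0.457), and Ran, a nuclear transport GTPase, 438 ± 57 CPM and 562 ± 63 CPM (-0.36 ± 0.19, edgeR adjusted p = 0.693). Of 20 G1/S and 20 G2/M genes edgeR called 0 in each list (2 G1/S genes lower and 0 G2/M genes at an unadjusted p under 0.05, and 0 by DESeq2 and limma-trend), with medians of -0.15 and -0.25.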

How the data were processed

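The authors deposited read counts per gene and cell for 365 cells that had passed their quality filters. Per the labels' protocols, cDNA was full-length (SMARTer, Nextera XT) without molecular identifiers, and build mm9 and R 3.2.0 were used, per the submitters' processing notes; for the counting tool, the sources used here give no name. The deposited gene length column gave RPKM. Of 23427 rows, 93 had no name and were kept under their Entrez identifier in the totals, the thinning and the input of the tests. The library kits named do not keep strand. Counts were summed per chip and tested in edgeR 4.0.16 (R 4.3.3), Ly6D+ over TN. The settings were TMM, filterByExpr with a minimum count of 10, a quasi-likelihood F-test and Benjamini-Hochberg over 11797 genes. A run on counts simulated from the fitted dispersions required only that recovered genes had the right sign. It does not measure how reliable the calls are in these data. The SE is the log2 fold change over the root of F. CPM on chip sums uses TMM-scaled library sizes; subset and list sums use raw totals. DESeq2 1.42.0 and limma 3.58.1, left-out chips and cells, and other cut-offs were alternatives. Detection shares used exact permutation over 20 splits of the chips. From each cofactor and target list the text names every edgeR call, and up to 3 genes per direction with the largest fold among those without chip overlap and found in 20% or more of cells of the higher population. The members and all lists were chosen with earlier results of these data known. Doublets were not called.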

Additional observations from a re-analysis of the deposited data

How the results depend on the processing

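No member was called by edgeR under any of 13 alternatives in that tool, and Myb and Myc stayed positive in all of them, at 0.75 to 1.11 (adjusted p = 0.209 to 0.645) and 0.94 to 1.24 (adjusted p = 0.172 to 0.495). By DESeq2 Myb was 0.91 and Myc 1.08, and by limma-trend 2.46 and 1.99, all 4 past the threshold. The limma-trend values are differences of chip means of log2(CPM + 1) per cell, cells without reads included. Their size is therefore not comparable with the fold changes on chip sums. With 1 chip left out, Runx1 ranged from -0.10 to 0.20 and Runx3 from -0.16 to 0.10, and Runx3 was 0.21 by limma-trend; neither direction is fixed. Runx1 was 0.38 without the Xist cells and 1.18 by limma-trend, past the threshold in neither. The number of called genes, 24 in the main test, was 2 to 23 with 1 chip left out (4, 23 and 2 without Ly6D+ chips 4, 5 and 6, and 8, 12 and 7 without TN chips 1, 2 and 3), 7 without the 41 Xist cells, 5 without cells of 5 or more G2/M genes, 399 by DESeq2 and 326 by limma-trend. The cause was not tested. The difference in detection of Runx1 was 22.9 points without Xist cells and 8.96 points in cells with 2000 to 3500 detected genes, a range chosen after seeing the data, in which Myb was 17.1 points; Runx1, Myb and Myc shares stayed free of overlap in all 12 alternatives. No paired analysis was possible because the chips of the populations share no number.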
